A study of Mus musculus with 18 samples.

Results

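Whole mouse embryos at E9.5 carrying no wild-type Tbx1 allele fell into a lowest and an intermediate level of Tbx1 signal, and these levels were compared with each other. The lowest level was the 4 embryos of genotype Neo/Neo or -/-, and the intermediate level the 4 embryos of genotype Neo2/Neo or Neo2/-, which is 8 of the 18 arrays of the series. The comparison was set from the Tbx1 signal itself, so the difference in Tbx1 is a description and carries no test. Each of the 9 genotypes of the series was represented by 2 embryos, each hybridised to its own array with 45037 probe sets, and the other 10 arrays were WT, Neo2/+, Neo/+, +/- and Neo2/Neo2. The alleles combine a targeted null (-), a Neo allele and a Neo2 allele of Tbx1 on a background of 129SvEv mixed with C57Bl/6, which all embryos shared, and the embryos were frozen after dissection with no other treatment named. Neo and Neo2 are named here as hypomorphic alleles, a term for alleles that lower the output of a gene without abolishing it. The Tbx1 signal below showed no loss in Neo2/Neo2 and did not tell Neo/Neo from -/-. Because each embryo was homogenised whole, fewer cells of a type and less RNA per cell cannot be told apart in any value below.

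Tbx1 encodes a T-box transcription factor, a protein that binds DNA and sets the transcription of other genes. It is made in the pharyngeal endoderm, the mesoderm of the arches and the second heart field, the progenitors that add muscle to the outflow tract, and in the otic vesicle. The gene is known for its dose sensitivity: loss of a copy in the human 22q11.2 deletion goes with defects of the arch arteries, outflow tract, thymus and parathyroids. Wild-type and hypomorphic alleles therefore give a graded loss of function in the mouse.

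Tbx1 signal came from 1 probe set. On the log2 scale it read 5.65 and 5.67 on the 2 Neo2/Neo arrays and 5.61 and 5.81 on the Neo2/- arrays. It read 5.04 and 5.20 on the Neo/Neo arrays, and 4.98 and 5.16 on the -/- arrays. The 4 lowest arrays lay below the 4 intermediate ones without overlap, at 5.09 ± 0.10 (SD, n = 4) against 5.69 ± 0.08 (SD, n = 4), a difference of -0.59. The 2 genotypes within each level overlapped, with means of 5.07 for -/- and 5.12 for Neo/Neo. The other 10 arrays lay between 6.13 and 6.63, with a median of 6.57, above both levels. Among them Neo2/Neo2 had a mean of 6.62, not below the WT mean of 6.59 (n = 2 each). The labels do not place the probe set inside or outside the deleted part of the null allele, so its signal checks the labels only as far as the order of these values.

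**Figure D1:**
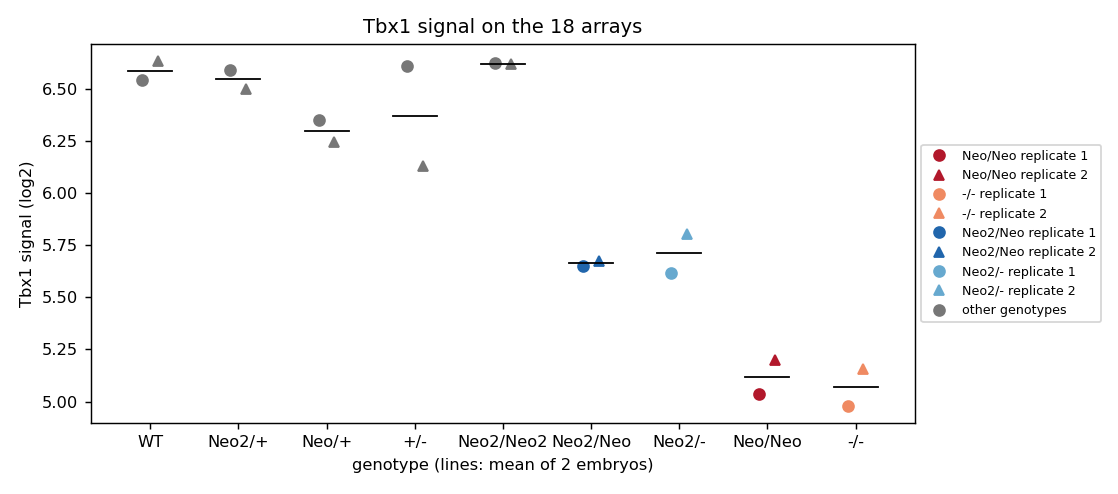
Tbx1 signal (log2) on each of the 18 arrays, by genotype, with lines at the mean of the 2 embryos. The 4 embryos of the lowest level lie at 4.98 to 5.20 and the 4 of the intermediate level at 5.61 to 5.81, with the other 10 arrays above 6.13.

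Upstream sequence is shown for Tbx1 and for the gene with the smallest p in each direction of the comparison that has an entry in RefSeq's table of promoters (build GRCm38.p6), H3c4 and Susd1, as the 250 bases before each start. The windows are chr16:18588900-18589149, minus strand for Tbx1, chr13:23575513-23575762, plus strand for H3c4 and chr4:59438634-59438883, minus strand for Susd1. Capitals mark matches on either strand to 3 motifs: the T-box binding site core GGTGTGA, the CCAAT box CCAAT and the TATA box TATAAA.
Tbx1: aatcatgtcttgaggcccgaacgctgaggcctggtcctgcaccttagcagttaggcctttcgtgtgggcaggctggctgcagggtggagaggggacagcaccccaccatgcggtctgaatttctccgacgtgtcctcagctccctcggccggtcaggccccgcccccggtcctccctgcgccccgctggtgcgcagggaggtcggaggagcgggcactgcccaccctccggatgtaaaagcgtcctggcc
H3c4: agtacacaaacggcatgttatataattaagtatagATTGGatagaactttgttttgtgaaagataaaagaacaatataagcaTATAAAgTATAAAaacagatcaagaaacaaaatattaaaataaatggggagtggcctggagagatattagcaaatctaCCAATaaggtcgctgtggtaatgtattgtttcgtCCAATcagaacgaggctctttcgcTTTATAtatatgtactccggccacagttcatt
Susd1: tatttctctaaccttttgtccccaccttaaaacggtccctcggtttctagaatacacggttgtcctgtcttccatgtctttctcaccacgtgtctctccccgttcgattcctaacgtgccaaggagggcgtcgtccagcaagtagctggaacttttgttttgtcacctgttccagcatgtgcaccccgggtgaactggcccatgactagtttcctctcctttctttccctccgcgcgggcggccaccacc

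The H3c4 window held CCAAT and TATAAA matches, 6 in all, and the Tbx1 and Susd1 windows shown held none of the 3 motifs. Tbx1 had 2 windows in the RefSeq table, of which 1 is shown. The core was found in 3.33% of the 32851 windows of the same length in the table, CCAAT in 33.85% and TATAAA in 12.37%. Of the 20 genes named for the comparison, 17 had at least 1 window, 22 windows in all. None of these 22 windows held the core, 12 held CCAAT and 4 held TATAAA. A window without a match says only that these letters are not in it.

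The 8 embryos differed in ways their genotypes do not give. Median signals of the 18 arrays were close, from 5.73 to 5.94. Median correlation with the other 7 arrays was 0.9854 for -/- replicate 1 and 0.9896 for -/- replicate 2, against 0.9937 to 0.9945 for the other 6 arrays. On the first 2 principal components of the 8 arrays, which held 37.47% and 24.76% of the variance, -/- replicate 1 lay at 64.7 on the first and -/- replicate 2 at 46.2 on the second. Sex-linked markers gave 2 males for Neo/Neo, 2 females for -/-, and 1 of each for Neo2/Neo and for Neo2/-. Each level thus held 2 females and 2 males, but the genotype contrasts below are not balanced for sex. Results are given with and without -/- replicate 1 where it moves them.

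No probe set passed an adjusted p of 0.05 between the lowest and the intermediate level: 0 of 45036 (0%; Tbx1 left out), with a smallest adjusted p of 0.0675 (limma with Benjamini-Hochberg adjustment). At an unadjusted p under 0.05 there were 3140 probe sets (6.97%), of which 1861 (4.13%) were higher and 1279 (2.84%) lower in the lowest level. Without overlap between the 4 and 4 arrays, 1327 (2.95%) were higher and 734 (1.63%) lower, 2061 in all (4.58%). Without -/- replicate 1 there were again 0 calls, with a smallest adjusted p of 0.108 and 3690 at an unadjusted p under 0.05 (8.19%). Leaving out -/- replicate 2 gave 17 calls and leaving out Neo2/- replicate 2 gave 2, while each of the other 6 arrays left out gave 0. With 1 probe set for each of 18192 genes other than Tbx1, the brightest, 725 genes (3.99%) were higher and 468 (2.57%) lower at an unadjusted p under 0.05. The median gene difference was 0.03 and 58.1% of genes were above 0, so single directions below are read against that shift. The genes that follow are those with the smallest p in each direction, and none is a called change.

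Of the 10 genes with the smallest p among those higher in the lowest level, H3c4 had the largest difference. H3c4 encodes a core histone H3 of the kind made when DNA is copied. Its signal read 4.44 and 5.14 on the Neo2/Neo arrays, 5.09 and 5.48 on the Neo2/- arrays, 6.84 and 6.88 on the Neo/Neo arrays, and 7.61 and 7.33 on the -/- arrays. The levels did not overlap, and the difference was 2.13 (SE 0.24, adjusted p = 0.0776 by limma). The histone H3 genes are near-identical copies, so the probe set may read more than the gene it is named for. Outside the 8 arrays the signal stood at 6.92 to 7.31 on 9 of the 10 arrays and at 4.26 on WT replicate 2. The intermediate level was thus the level away from most other arrays, in common with 1 wild-type embryo.

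H3f3b encodes the replacement histone H3.3, and its 1 probe set was also higher. It read 5.39 and 6.01 on the Neo2/Neo arrays, 5.71 and 5.66 on the Neo2/- arrays, 6.86 and 7.06 on the Neo/Neo arrays, and 7.28 and 6.25 on the -/- arrays. The levels did not overlap, and the difference was 1.17 (SE 0.21, adjusted p = 0.351 by limma). Tlr2, a receptor of innate immunity, read 4.54, 4.98, 4.60 and 4.58 in the intermediate level in the order above, and 5.44, 5.23, 5.30 and 5.03 in the lowest. The difference was 0.58 and the nearest arrays of the 2 levels were Neo2/Neo replicate 2 and -/- replicate 2. The other higher genes were 6330415G19Rik (0.44), Pla2g12a (0.42), a secreted phospholipase A2, 9130410C08Rik (0.37), Pon1 (0.36), the paraoxonase that hydrolyses lipid lactones, Zfp354a (0.33), a zinc finger protein, 2310016D03Rik (0.28) and Depdc7 (0.71). All but Depdc7 were without overlap, and their adjusted p ranged up to 0.583 (limma). Several of these were dim: Pon1 stood at 4.05 in the lowest and 3.69 in the intermediate level, and 2310016D03Rik at 3.54 and 3.26. The second probe set of 6330415G19Rik differed by -0.06.

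Among the 10 genes with the smallest p that were lower in the lowest level, Lrp12 encodes a receptor of the LDL receptor family. It read 8.17 and 8.23 on the Neo2/Neo arrays, 8.20 and 8.17 on the Neo2/- arrays, 7.81 and 7.58 on the Neo/Neo arrays, and 7.74 and 7.82 on the -/- arrays. The intermediate arrays were nearly alike, none overlapped the lowest, and the difference was -0.46 (SE 0.07, adjusted p = 0.223 by limma). Susd1, a sushi domain protein, read 4.77, 4.83, 4.96 and 4.74 in the intermediate level and 4.35, 4.41, 4.43 and 4.29 in the lowest, with the same difference of -0.46. Its signal was dim, and the other 10 arrays spanned 4.29 to 5.02, a range that takes in both levels.

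Both aquaporins of the 20 named genes, which are channels for water, were lower. Aqp3, which also passes glycerol, read 6.88, 6.66, 6.75 and 7.05 in the intermediate level and 6.12, 6.26, 6.36 and 5.97 in the lowest, a difference of -0.66 (SE 0.11, adjusted p = 0.273 by limma). Its 3 other probe sets differed by -0.82 to 0.00. Aqp1 was dim and differed by -0.36, at 4.36 ± 0.06 against 4.72 ± 0.11 (SD, n = 4 each).

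Chaserr is a long noncoding RNA that restrains its neighbour Chd2. It read 9.02, 8.97, 8.82 and 8.90 in the intermediate level and 8.33, 8.53, 8.59 and 8.23 in the lowest, a difference of -0.51 (SE 0.09, adjusted p = 0.385 by limma). Its second probe set differed by -1.10, the same way.

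Draxin, a secreted guidance cue for growing axons, differed by -0.45 (its second probe set by -0.54), and Erc2, a scaffold of the presynaptic active zone, by -0.33. Sfxn3, a mitochondrial serine carrier, differed by -0.56, 5930403N24Rik by -0.45 and Gm13306 by -1.0. Gm13306 spanned 7.46 to 8.25 in the intermediate level and 6.39 to 7.12 in the lowest, and 5.12 to 8.43 over the other 10 arrays. All 10 of the lower genes were without overlap. None of these 20 differences changed sign under any alternative setting run or with any array left out. For a gene without overlap, leaving out an array cannot change the sign, so only Depdc7 could have turned that way. The 20 were also picked by smallest p on these arrays, so the kept signs are no separate check.

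**Figure D2:**
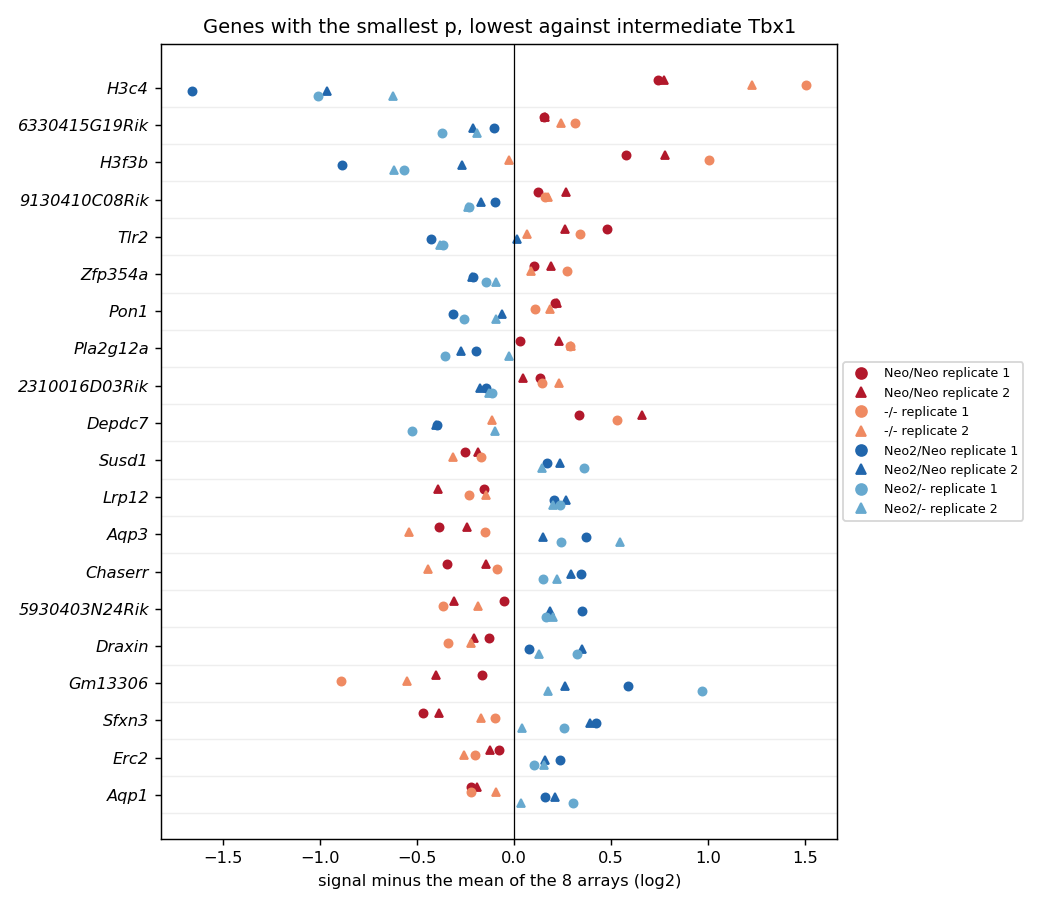
Signal of the 20 genes with the smallest p, each as its difference from the mean of the 8 arrays (log2), by genotype and replicate. Every gene but Depdc7 has the 4 lowest arrays on one side of the 4 intermediate arrays.

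For most of the 20 named genes the intermediate level, rather than the lowest, was the one away from the rest of the series. It was farther than the lowest from the median of the other 10 arrays for 15 of the 20, against 51.8% of all genes. Among the 776 genes without overlap between the levels the share was 53.7%, near that of all genes. The 20 were picked by smallest p, so their share does not stand for the others. All 4 intermediate arrays lay outside the range of the other 10 for 4 of the 20: 9130410C08Rik, Lrp12, Chaserr and Sfxn3. All 4 lowest arrays did so for 0 of the 20. Over all genes the counts were 148 for the intermediate and 25 for the lowest level, and over the 776 genes without overlap between the levels (4.27%) they were 35 and 10. Lrp12 stood at 7.62 to 8.03 on the other arrays, so 3 of its 4 lowest arrays lay within their range and all 4 intermediate arrays above it. Sfxn3 likewise stood at 5.62 to 6.04 on the other arrays, with the intermediate level at 6.46 ± 0.17 (SD, n = 4) above that range and the mean of the lowest, 5.91 ± 0.18 (SD, n = 4), inside it. Because the intermediate level was itself chosen by Tbx1 signal and holds only Neo2 over Neo or null, genotype and Tbx1 level cannot be told apart here.

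The lists of genes for tissues and pathways were chosen with earlier results of these data known, and 0 members of any of the 40 lists were called. For a list, the share of members below 0 is read against 41.9% of all genes, and no overlap against 1.38% of genes lower and 2.89% higher, or 2.93% and 5.13% without -/- replicate 1. Across lists, 29 medians were below 0 and 11 above, and leaving out -/- replicate 1 turned the sign of 11 of the 40. Score means the mean of the members' deviations from their 8-array means.

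**Figure D3:**
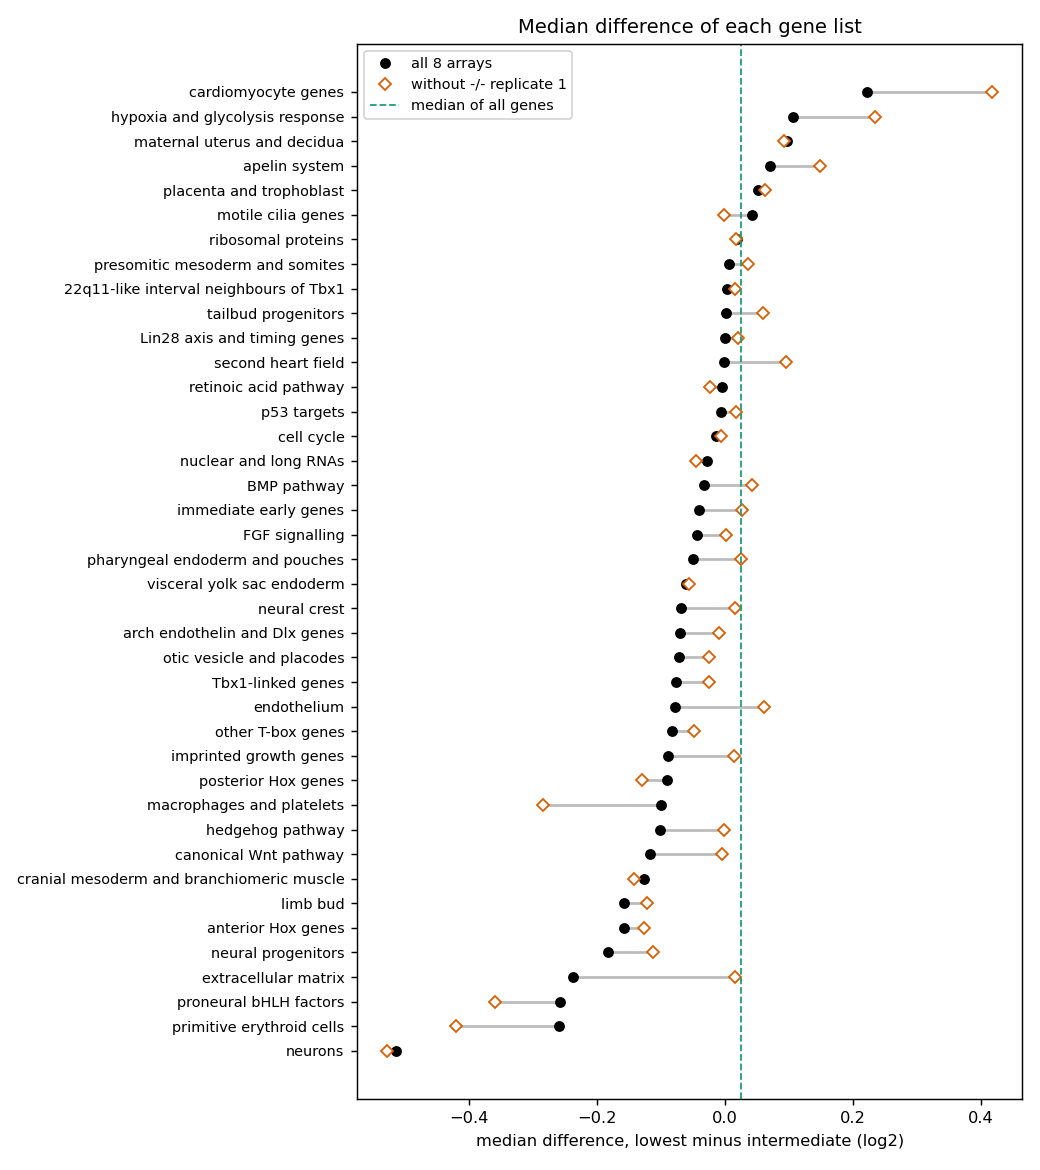
Median difference, lowest minus intermediate (log2), of each of the 40 gene lists over all 8 arrays (black) and without -/- replicate 1 (open). The dashed line is the median of all genes, 0.03. Neurons lie lowest at -0.51, cardiomyocyte genes highest at 0.22, and the extracellular matrix moves most towards 0 without the array.

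Lists of Tbx1-linked genes and of the tissues that make Tbx1 had medians near 0. Of 38 measured Tbx1-linked genes, 27 were lower and 11 higher, with a median of -0.08 (-0.02 without -/- replicate 1), 2 lower and 1 higher at an unadjusted p under 0.05, and 1 without overlap. Foxc1, a forkhead factor of the arch mesenchyme, read 9.29, 9.22, 9.15 and 9.01 in the intermediate level and 8.81, 8.98, 8.83 and 9.13 in the lowest, a difference of -0.23 with overlap. Robo1, a guidance receptor, differed by -0.54 with -/- replicate 1 at 7.83, and by -0.28 without that array. Nkx2-5, the cardiac homeodomain factor, differed by 0.46 (0.61 without it), reading 6.37, 6.01, 6.18 and 6.61 against 6.51, 7.03, 6.31 and 7.15.

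Pharyngeal endoderm and pouch genes gave a median of -0.05 over 21 genes (0.02 without -/- replicate 1), with 1 without overlap in each direction. Sox2, a progenitor factor of endoderm and of neural tissue, was the lower one, with a difference of -0.28 (10.65 ± 0.16 against 10.93 ± 0.07, SD, n = 4 each). Fgf3, an FGF ligand, was the higher one, reading 4.86, 4.76, 4.78 and 4.85 against 4.88, 5.15, 4.89 and 5.52, a difference of 0.30.

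Second heart field genes gave a median of 0.00 over 25 genes (0.10 without -/- replicate 1), with 2 higher without overlap. These were Smyd1, a muscle methyltransferase, and Sema3c, a guidance cue of the outflow tract. Smyd1 read 5.88, 5.52, 6.06 and 6.21 in the intermediate level and 6.39, 6.32, 6.89 and 7.04 in the lowest, a difference of 0.74 (SE 0.20, adjusted p = 0.690 by limma). The 5 other probe sets of Smyd1 differed by 0.01 to 0.44. Sema3c differed by 0.23.

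Other lists of arch tissue had medians between -0.13 and -0.07. Neural crest genes, for the migrating cells that fill the arches, had a median of -0.07 over 25 genes, which became 0.02 without -/- replicate 1. Otic vesicle and placode genes had -0.07 over 22 (-0.03 without that array), arch endothelin and Dlx genes -0.07 over 16 (-0.01 without it), and cranial mesoderm and branchiomeric muscle genes -0.13 over 16. Within the last, the lower members at an unadjusted p under 0.05 were Ebf1 (-0.75), Ebf2 (-0.50) and Ebf3 (-0.52), which are also factors of early neurons, and Nkx2-5 was the higher one at 0.46. The 35 neighbours of Tbx1 in the interval that matches 22q11 had a median of 0.00 (0.02 without -/- replicate 1; 18 higher and 17 lower), with 3 higher without overlap, among them Slc7a4, a transporter-like protein (0.25), and Dgcr6 (0.26). Other T-box genes, 14 measured, had a median of -0.08 (-0.05 without -/- replicate 1) and scores without overlap, though -/- replicate 1 stood far below the other 3 lowest arrays at -0.14. Tbx18 was without overlap, at 7.84 ± 0.11 against 8.10 ± 0.06 (SD, n = 4 each).

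Neuron genes were lower in the lowest level than in the intermediate, as a group by count and median, but not without overlap. Of 42 measured genes, 41 were below 0, against 41.9% of all genes, the median was -0.51, and 10 were lower at an unadjusted p under 0.05. Without -/- replicate 1 the median was -0.53. The score read 0.50 and 0.53 on the Neo2/Neo arrays, 0.25 and -0.24 on the Neo2/- arrays, 0.17 and -0.25 on the Neo/Neo arrays, and -0.20 and -0.76 on the -/- arrays. Neo2/- replicate 2 thus sat among the lowest level, and Neo/Neo replicate 1 near Neo2/- replicate 1. Only 1 of the 42 was without overlap, Ebf1, at 6.63, 6.17, 6.99 and 6.36 against 7.47, 7.35, 7.29 and 7.03, a difference of -0.75 (adjusted p = 0.583 by limma). The 4 other probe sets of Ebf1 differed by -0.58 to 0.05. Onecut1, a factor of early neurons, differed by -0.60 and Dpysl3, a protein of growing axons, by -0.37. Cntn2, an axon adhesion molecule, read 6.88, 7.13, 6.98 and 5.85 in the intermediate level and 6.42, 5.94, 5.91 and 5.15 in the lowest, so that Neo2/- replicate 2 lay below 3 of the 4 lowest arrays.

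The upstream lists of the neural lineage ran the same way by count and median. Proneural factors, which commit progenitors to become neurons, were lower for 19 of 21 genes, with a median of -0.26 (-0.36 without -/- replicate 1). The 1 member without overlap, Neurod2, went the other way and was higher by 0.16. Neurog1 differed by -0.45, Neurod1 by -0.66 and Neurog2 by -0.41, each with overlap through Neo2/- replicate 2. Their medians on the other 10 arrays were 7.58, 8.28 and 7.68. These lay below the means of both levels for Neurog1 and Neurog2, and between them for Neurod1. Neural progenitor genes were lower for 28 of 31, with a median of -0.18 (-0.11 without -/- replicate 1). Their score was without overlap between the levels: 0.09, 0.05, 0.20 and 0.06 in the intermediate level and 0.01, -0.02, -0.30 and -0.09 in the lowest. Within it Dbx1, a factor of interneuron progenitors, differed by -0.55, Sox21 by -0.26 and Zic1, a dorsal progenitor factor, by -0.37. Without -/- replicate 1 and Neo2/- replicate 2, arrays left out after the values were seen, the medians were -0.69 for neurons, -0.45 for proneural factors and -0.13 for neural progenitors.

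**Figure D4:**
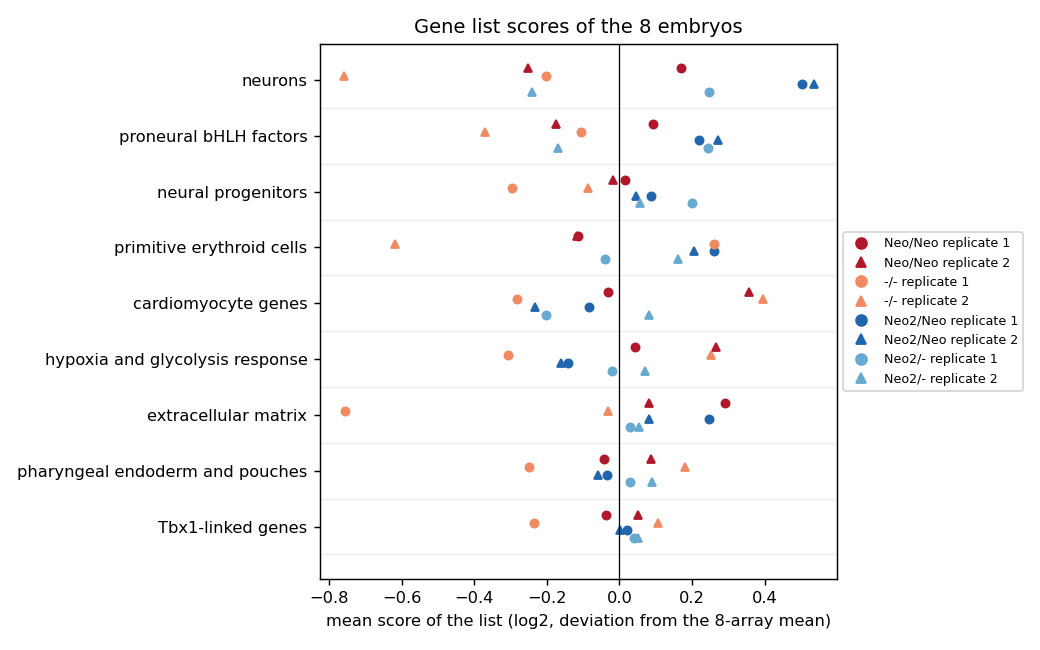
Score of 9 gene lists on each of the 8 arrays (log2, mean deviation from the 8-array mean), by genotype and replicate. The neuron score of Neo2/- replicate 2 is -0.24, within the lowest level, and the erythroid score of -/- replicate 1 is 0.26, within the range of the intermediate level.

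Markers of blood and heart muscle differed in opposite directions. Genes of primitive erythroid cells, the first red cells of the embryo, were lower for 25 of 28, with a median of -0.26. Without -/- replicate 1 the median was -0.42 and the members lower without overlap numbered 16, against 2 with it. The score read 0.26, 0.21, -0.04 and 0.16 in the intermediate level and -0.11, -0.12, 0.26 and -0.62 in the lowest. Slc4a1, the anion exchanger of the red cell membrane, read 10.76, 10.81, 10.27 and 10.52 against 10.18, 10.22, 9.80 and 8.81, a difference of -0.83. Add2, a membrane skeleton protein, differed by -0.64 and Epb42 by -0.43. Tfrc, the transferrin receptor, was the 1 member higher without overlap, at 0.25. Medians on the other 10 arrays were 9.62 for Slc4a1, 6.35 for Add2 and 6.31 for Epb42, below the means of both levels. For Tfrc the median was 11.15, between the means. Genes of macrophages and platelets were lower for 22 of 25, with a median of -0.10 (-0.28 without -/- replicate 1). That list differed by partner allele: at partner Neo 24 of 25 were lower, with a median of -0.30, and at partner null 7 were lower, with a median of 0.10. Its score was highest on -/- replicate 1, at 0.35. The difference between the 2 medians was not tested.

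Cardiomyocyte genes, which encode the contractile proteins of heart muscle, were higher for 24 of 27, with a median of 0.22 and 2 without overlap. Without -/- replicate 1 the median was 0.42 and 7 were without overlap. The score of -/- replicate 1 was -0.28, the lowest of the 8, while -/- replicate 2 and Neo/Neo replicate 2 stood at 0.40 and 0.36. Tnnc1, the calcium sensor of the thin filament, read 10.09, 10.03, 9.84 and 10.17 against 10.35, 10.68, 10.25 and 10.35, a difference of 0.37. Myl4, an atrial myosin light chain, differed by 0.46 and Myl3 by 0.43, both with overlap. Genes of hypoxia and glycolysis were higher for 26 of 31, with a median of 0.11 (0.23 without -/- replicate 1), including Bnip3 (0.38), Egln3 (0.29) and P4ha1 (0.35). At partner Neo the median of that list was 0.31 with 2 of 31 lower, and at partner null it was 0.00 with 15 lower.

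Other lists were named for tissue that lies around an embryo, but their members were not shown to mark that tissue alone. Maternal uterus and decidua genes were higher for 22 of 27, with a median of 0.10. Most were dim, with a median level of 5.22. Krt8 was bright, at 10.12 in the lowest and 9.55 in the intermediate level, and differed by 0.57. Whether its signal came from maternal tissue was not tested. Visceral yolk sac genes were lower for 19 of 27, median -0.06, with Fgb, a fibrinogen chain, lower without overlap by a difference of -0.49. Serpina1b, 1 of several near-identical copies, read 7.02, 6.53, 6.91 and 6.29 in the intermediate level and 5.37, 4.78, 6.72 and 5.72 in the lowest, a difference of -1.04. Placenta and trophoblast genes had a median of 0.05 over 17, at a dim median level of 4.10. The part of these tissues in the neural, blood and heart values was not tested.

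Medians of matrix, hedgehog and Wnt genes moved with -/- replicate 1. Extracellular matrix genes were lower for 29 of 34, with a median of -0.24, but without that array the median was 0.02, and its score was -0.76 where the other 7 arrays lay between -0.03 and 0.29. Col11a1, a fibrillar collagen, read 8.53, 8.51, 8.47 and 8.39 against 8.39, 8.20, 7.50 and 8.16, a difference of -0.41 (-0.22 without it). Hedgehog pathway genes, among them the coreceptor Boc (-0.28, or -0.16 without it), the acyltransferase Hhat (-0.29, or -0.18) and the target Foxf2 (-0.24), had a median of -0.10 that became 0.00. Canonical Wnt genes went from -0.12 to 0.00 in the same way, with Fzd6, a receptor, at -0.48 and Frzb, a secreted inhibitor, at -0.28. Limb bud genes were lower for 20 of 23, median -0.16 (-0.12 without it), with Meis2 (-0.21) and Meis1 (-0.25, or -0.15 without it) without overlap. Hox genes of the anterior body had a median of -0.16 over 13, and those of the posterior body -0.09 over 16 (-0.14 at partner Neo and 0.07 at partner null). Malat1, a nuclear noncoding RNA, read 8.29 on -/- replicate 1 and 11.50 on -/- replicate 2, against 12.20 to 12.61 on the other 6 arrays, and the difference of -1.26 became -0.30 without -/- replicate 1.

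Each lower-signal genotype has a partner genotype that shares its second allele: Neo/Neo with Neo2/Neo, and -/- with Neo2/-. These contrasts share no arrays, and each asks what Neo or null in place of Neo2 goes with when the other allele is fixed. Between Neo/Neo and Neo2/Neo 10 probe sets of 45036 were called (0.0222%), all lower in Neo/Neo, and between -/- and Neo2/- none was (0%), with a smallest adjusted p of 0.354 and 4736 at an unadjusted p under 0.05 (10.5%; limma). Leaving out an array leaves a genotype with 1 embryo, and these counts then moved widely: at partner null 6424 probe sets were called without -/- replicate 2 and 6 without -/- replicate 1, and at partner Neo 54 without either -/- array and 1 without any Neo/Neo or Neo2/Neo array. For 56.4% of 18188 genes the 2 contrasts had the same sign (10257 genes), and across genes their correlation was 0.22 (0.40 without -/- replicate 1), a description, since genes are not independent replicates. H3c4 was the gene with the smallest p among those higher in both, at 2.07 for partner Neo and 2.18 for partner null.

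The 10 probe sets called at partner Neo belonged to Rpgrip1, 2010315B03Rik, Ctse, Tia1, Lztfl1, Zfp945, Lman1 and Riok3 and to 2 probe sets with no gene. Rpgrip1 encodes a protein of the photoreceptor cilium and had the smallest p of the 10. For 6 of the 8 genes the called probe set was not the gene's brightest, and the brightest one differed at partner Neo by 0.00 for Tia1, 0.01 for Riok3, -0.06 for Lztfl1, 0.13 for Lman1, 0.38 for Zfp945 and 1.34 for Ctse. Rpgrip1 read 10.45 and 10.31 on the Neo2/Neo arrays and 6.49 and 6.51 on the Neo/Neo arrays, a difference of -3.88 (SE 0.10, adjusted p = 2.8e-05 by limma). On the -/- arrays it read 11.66 and 11.57, and on the Neo2/- arrays 11.51 and 11.48, a difference of 0.11. The difference between the 2 contrasts was 4.0 (adjusted p = 0.000282 by limma). Its 3 other probe sets differed between the levels by -0.05 to 0.10.

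Rpgrip1 signal was also low where the Neo allele stood over a wild-type allele. The 2 Neo/+ arrays read 6.87 and 6.94, and +/- replicate 1 read 6.24 while +/- replicate 2 read 11.50, and the other 6 arrays outside the 8 lay between 10.51 and 11.58. Tbx1 itself was at 6.35 and 6.24 on the Neo/+ arrays, above both levels compared here. With the genotype means of all 18 arrays fitted together, Rpgrip1 was not called. 2010315B03Rik read 4.47 and 4.48 on the Neo/Neo arrays, 5.69 and 5.63 on the Neo2/Neo arrays and 4.17 and 4.54 on the Neo/+ arrays, and the difference at partner Neo was -1.18 (adjusted p = 0.0243 by limma). The called probe set of Lztfl1, a regulator of ciliary trafficking, read 3.42 and 3.33 on the Neo/Neo arrays and 5.41 and 5.42 on the Neo2/Neo arrays, and 3.56 and 3.07 on the Neo/+ arrays.

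Among the genes named at partner Neo, Supt16, a histone chaperone subunit, was higher by 0.74 and Esco1, a cohesin acetyltransferase, lower by a difference of -1.28. Neither was called. Supt16 read 11.97 and 12.17 on the Neo/+ arrays, near 11.96 and 11.99 on Neo/Neo, against 11.21 and 11.26 on Neo2/Neo. Esco1 read 6.77 and 6.60 on Neo/+ and 6.57 and 6.38 on Neo/Neo, against 7.80 and 7.72 on Neo2/Neo. Neo2/Neo2 embryos carry no Neo allele, and their 2 arrays read 6.94 and 8.49 for Esco1 and 11.22 and 10.22 for Supt16. The called probe set of Riok3 read 6.55 and 8.94 on them, against 6.62 and 6.48 on Neo/Neo. A low Esco1 or Riok3 signal was thus not confined to embryos with the Neo allele. In the gene order of RefSeq (GRCm38.p6), Supt16 and Rpgrip1 had 1 listed gene between them, 2010315B03Rik and Lztfl1 had 14, and Esco1 and Riok3 had 25. These pairs were looked at after the values were seen. The labels give the mixed background but not the strain each embryo inherited at those places, and its part in the values was not tested. Niban3 was higher by 0.86 at partner Neo and was not called (adjusted p = 0.237 by limma). It read 7.31 and 7.07 on Neo/Neo and 6.89 and 7.17 on Neo/+, against 6.39 and 6.27 on Neo2/Neo.

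At partner null, the named genes beside H3c4 were Il4i1 (0.65), an amino acid oxidase, and Tmco6 (0.53) among the higher, and B130055M24Rik (-1.15), Fat4 (-0.69), an atypical cadherin, and Adcyap1r1 (-0.65), the PACAP receptor, among the lower. None was called. B130055M24Rik read 5.07 and 4.80 on the -/- arrays against 6.19 and 5.99 on the Neo2/- arrays, and 6.06 and 6.09 on the Neo/Neo arrays. The genes with the next smallest p for a difference between the contrasts were Gadd45gip1 (0.99), 2010315B03Rik (1.45), Bcl2l13 (-0.89), Dmpk (-1.02) and B130055M24Rik (-1.12), none past an adjusted p of 0.05. Of 45036 probe sets, 2 were called for that difference (0.00444%), those of Rpgrip1 and Lztfl1.

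**Figure D5:**
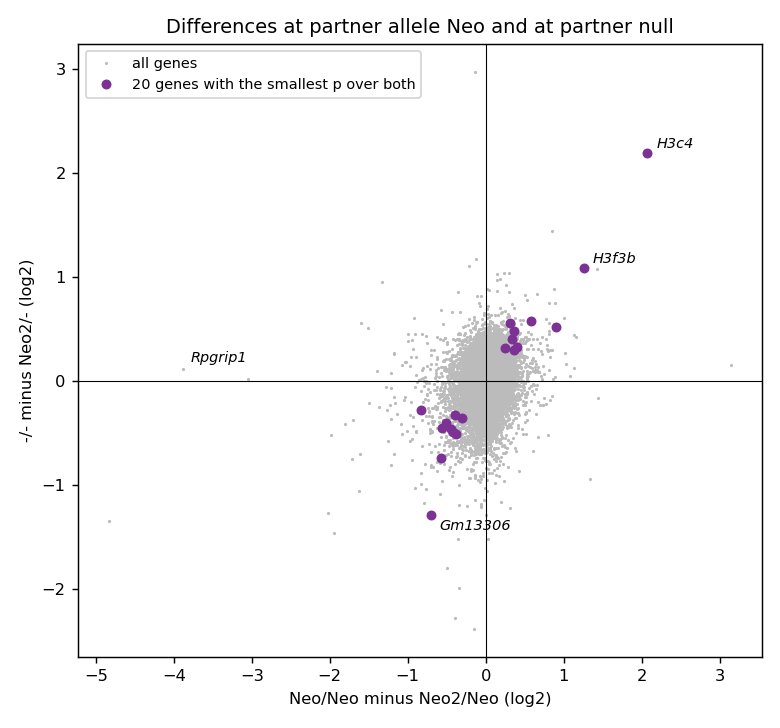
Difference of each gene at partner null (-/- minus Neo2/-, log2) against its difference at partner Neo (Neo/Neo minus Neo2/Neo, log2). Grey points are all genes and purple points the 20 named genes. H3c4 lies at 2.07 and 2.18, and Rpgrip1 at -3.88 and 0.11.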

How the data were processed

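RNA of whole E9.5 embryos was labelled from 6 ug and hybridised to 18 arrays, 2 embryos for each of 9 genotypes, per the labels. The deposited values are log2 signals, which the authors made with the affy package and RMA, per the submitters' processing notes (without versions). RMA subtracts background, quantile-normalises and summarises probes, so a global shift between arrays is removed. Of 45037 probe sets, 34945 had 1 gene symbol (18193 genes), 932 several and 9160 none. 34741 matched RefSeq by gene ID. For each gene the brightest probe set over 18 arrays was used.

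The tests were moderated linear models on 8 arrays with limma 3.58.1 in R 4.3.3, with Benjamini-Hochberg adjustment over all probe sets and a threshold of 0.05. The lowest against intermediate fit had 2 groups of 4. The contrasts at each partner allele came from 4 genotype means of 2 arrays. Replicates were separate embryos, per the labels. Tbx1 chose the levels and was not counted.

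Named genes were up to 12 in each direction passing the threshold, or where fewer than 5 passed, the 10 with the smallest p in each direction. For the contrasts at a partner allele and their difference they were the 3 with the smallest p in each direction, and for gene lists up to 4 members. The comparison, its members and the gene lists were chosen with earlier results of these data known. Promoters came from the RefSeq table of GRCm38.p6. The fits were tested on simulated data of 45037 features with 200 changed: the comparison of 4 against 4 recovered 50.7%, 91% and 98.5% of changes of 0.5, 1 and 2 on the log2 scale, with 15 false calls. At partner Neo the shares were 1.49%, 49.3% and 89.4%, with 2 false calls. The simulated noise was normal and independent across probe sets and arrays, without the deviations that probe sets of a real array share. These shares are therefore not the power of the real comparisons. The main fits did not pair embryos by replicate number. Between genotypes, the deviations of embryos with the same number correlated by -0.03 to 0.22. With 2 embryos per genotype, this cannot tell whether embryos of the same number were handled together. Alternatives tried were the other genotypes in the fit, partner allele, sex or replicate number as terms, array weights, a trend or robust prior, 2 other scalings, a filter on dim probe sets and each array left out.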

Additional observations from a re-analysis of the deposited data

Results flagged for a closer look

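With 258 groups of 4 arrays looked at, 12 had 1 array far from the other 3 by Dixon's ratio of gap to range, past its critical value; chance gives about 1 in 20 groups. In the lowest level 6 of these were set by -/- replicate 1: Sema3c (ratio 0.927, signal 8.14), Meis1 (0.915, signal 8.75), and the scores of neural crest (0.863), canonical Wnt (0.871), other T-box (0.949) and imprinted growth genes (0.855). The cell cycle score was set apart by -/- replicate 2 (0.934).

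In the intermediate level, Neo2/- replicate 2 set apart Myl4 (0.869), Zic1 (0.897) and the proneural score (0.882). Neo2/Neo replicate 2 set apart Tlr2 (0.862) and Neo2/Neo replicate 1 set apart Boc (0.907).

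The difference between the contrasts at partner null and partner Neo passed the test for Rpgrip1 (4.0, adjusted p = 0.000282 by limma) and for a probe set of Lztfl1 (2.19, adjusted p = 0.0203 by limma).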

How the results depend on the processing

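Against 0 calls between the lowest and the intermediate level, other settings gave 3 with 4 genotype means, 6 with all 18 arrays in the fit, 1 with partner allele as a term, 1 with each array centred on its median and 46 with array weights. The 3 with genotype means were Rpgrip1, Lztfl1 and H3c4. Leaving out 1 array gave 0 to 17, with 2 without Neo2/- replicate 2 and 17 without -/- replicate 2. Chosen after seeing the data, leaving out -/- replicate 1 and +/- replicate 1 from the 18 gave 189 (59 higher, 130 lower), and leaving out -/- replicate 1 and Neo2/- replicate 2 gave 4. With a random block for genotype, sex as a covariate, a replicate block, requantiling, a trend, robust fitting or a mean of at least 6 there were 0.

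At partner Neo, against 10, there were 6 with all 18 arrays, 2 at a mean of at least 6 and 7 with the replicate block; leaving out 1 array gave 1 to 54, with 1 without any Neo2/Neo or Neo/Neo array and 54 without either -/- array. At partner null, against 0, there was 1 with all 18 arrays, and 0 to 6424 on leaving out 1 array, with 6424 without -/- replicate 2. For the difference between the contrasts, against 2, there were 0 with all 18 arrays, 1 with the replicate block, 1 at a mean of at least 6, and 1 to 2596 on leaving out 1 array. Leaving out 1 array of a pair leaves a genotype of 1, assumed to vary like the others. Probe sets without overlap numbered 2061, 1003 at a mean of at least 6 and 2879 to 5313 on leaving out 1 array; with fewer arrays a lack of overlap is easier. The causes of the other moves were not tested. With the replicate block, 6 of the 10 calls at partner Neo remained, those of Zfp945, 2010315B03Rik, Riok3 and a probe set with no gene were lost, and 1 of Norad was gained. For the difference between the contrasts Rpgrip1 remained and Lztfl1 was lost (adjusted p = 0.0819 by limma).

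For the 88 genes named from the comparison of the levels or from the lists, 1655 of 1672 differences between the levels kept their direction and side of the threshold and 17 crossed it upward. None of the 88 was called in the main fit, so none could lose a call. They were also picked by smallest p on the same arrays, so this count is little check of stability. The genes named only from the contrasts at a partner allele are not among these 88. The number of arrays, 2 per genotype, limits the precision of every value.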
